A study of Mus musculus with 32 samples.

Results

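The organic anion and cation transporters described here are 9 genes picked by name from the deposited count table: Slc22a6, Slc22a8, Slc22a7, Slco4c1, Slc22a12, Slc22a19, Slc22a29, Slc22a30 and Slc22a2. They are 9 of 53700 genes counted. All 9 passed the filter on low counts, which 13961 genes passed in all, and Slc22a29 was found by its identifier, ENSMUSG00000075044. The libraries came from 32 kidneys of male C57BL/6 mice, each from a separate animal. The iKspCre-Pkd1del model carries a tamoxifen-inducible, kidney-specific Cre, driven by the Ksp-cadherin promoter, and a Pkd1 gene with loxP sites. The 12 PKD mice (Pkd1 KO) received 150 mg/kg tamoxifen by gavage on postnatal days 18 and 19, stayed on normal chow and were 95 days old. The 12 PKD + Salsalate mice had the same genotype, tamoxifen and age, and ate chow with 2.5 g/kg salsalate from postnatal day 81 for 2 weeks. By the study's account, the mice of both PKD groups were selected from more animals for a similarly mild cystic phenotype, by kidney weight over body weight. The 8 wildtype mice were given neither tamoxifen nor salsalate. Their age is 109 days by their labels, whereas the growth protocol and the study's methods place the end of the experiment at day 95 for all mice, and this conflict could not be settled. Pkd1 loss and tamoxifen, and age if the labels are right, cannot be told apart in any comparison with wildtype.

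The proximal tubule clears drugs and metabolites from blood in a pair of steps. Carriers on the blood side take up organic anions in exchange for dicarboxylates, or take up organic cations driven by the membrane potential, and carriers on the urine side let them out. Salsalate is split into salicylate, an organic anion that the Slc22a6 and Slc22a8 proteins carry, so the comparison of PKD + Salsalate with PKD asks whether the genes of this system differed while the kidney was handling that drug.

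The libraries held 11193136 to 109807664 counts on genes. Levels are given as CPM, read counts scaled to a common library size with TMM factors, which equalise the libraries on the bulk of their genes. The 9 transporters together took 0.206% to 0.488% of the counts in wildtype kidneys, 0.260% to 0.345% in PKD and 0.267% to 0.377% in PKD + Salsalate. Pkd1 lay at 53.1 to 86.4 CPM in wildtype, 70.7 to 113 in PKD and 67.4 to 120 in PKD + Salsalate kidneys. It passed as higher than wildtype in PKD (log2 fold change 0.42, adjusted p = 0.00134 from edgeR) and in PKD + Salsalate (0.43, adjusted p = 0.00129). Against the 3 wildtype libraries named without a final R neither passed, at 0.24 and 0.25. A count over the whole gene includes exons outside the deletion, so these values do not check the deletion. Markers of all proximal tubule segments were present, with none of 10 genes at 0 in any kidney, at summed levels of 16886 to 26653 CPM in wildtype, 16691 to 21188 in PKD and 14166 to 19507 in PKD + Salsalate. All 5 markers of injured tubule passed the test as higher in PKD than in wildtype, their sum going from 10.5 to 19.6 CPM in wildtype up to 82.2 to 212 in PKD, and it was 54.3 to 280.2 in PKD + Salsalate. PKD + Salsalate replicate 11 stood apart, with 280.2 CPM of injured tubule markers against 154 in the next kidney and the lowest sum of proximal tubule markers of all kidneys. It was the lowest of its group in 5 of the 9 transporters (Slc22a6, Slc22a7, Slc22a12, Slc22a19 and Slc22a2) and the highest in Slc22a29. Without it 226 genes instead of 81 were called with salsalate, and Slc22a29 was the one transporter called, at 0.56 on the log2 scale. PKD replicate 10 stood apart with 6158 CPM over 12 liver genes, against 1826 in the next PKD kidney. By name the wildtype libraries form 2 sets, 5 with a final R and 3 without. What the R stands for was not given in the sources used here, and every PKD and PKD + Salsalate library has a name without it. Since these are whole kidneys, fewer cells of a type and less RNA per cell cannot be told apart.

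With salsalate, 1 of the 9 transporters passed the test and 8 did not: Slc22a29 rose 1.50-fold over PKD. Among all genes tested, 0.580% passed in this comparison, 0.251% as higher and 0.329% as lower. The study itself names Slc22a29 among genes affected by salsalate, and the 9 were chosen with earlier results of these data known. None of the 9 had groups that did not overlap with salsalate, beside 0.0287% of all genes. In PKD against wildtype, 2 of the 9 passed, Slc22a2 and Slc22a7, both lower, where 49.1% of all genes passed, 24.1% as higher and 25.0% as lower. The transporters' share was not tested against that of all genes, and it changed with the wildtype libraries used, as given below. In PKD + Salsalate against wildtype, Slc22a2 and Slc22a7 were again lower and Slc22a29 was higher, 3 of 9 beside 44.9% of all genes, with 21.8% higher and 23.2% lower. No transporter had groups that did not overlap in that comparison, beside 6.39% of all genes. The median log2 fold change of the 9 was 0.04 with salsalate, beside -0.01 over all genes, and -0.13 in PKD against wildtype, beside -0.0091 over all genes. The comparisons that involve PKD use the same 12 PKD kidneys, so their values are set side by side and are not independent. Calls are at an adjusted p under 0.05 by edgeR's quasi-likelihood test, with Benjamini-Hochberg adjustment over all genes tested.

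**Figure D1:**
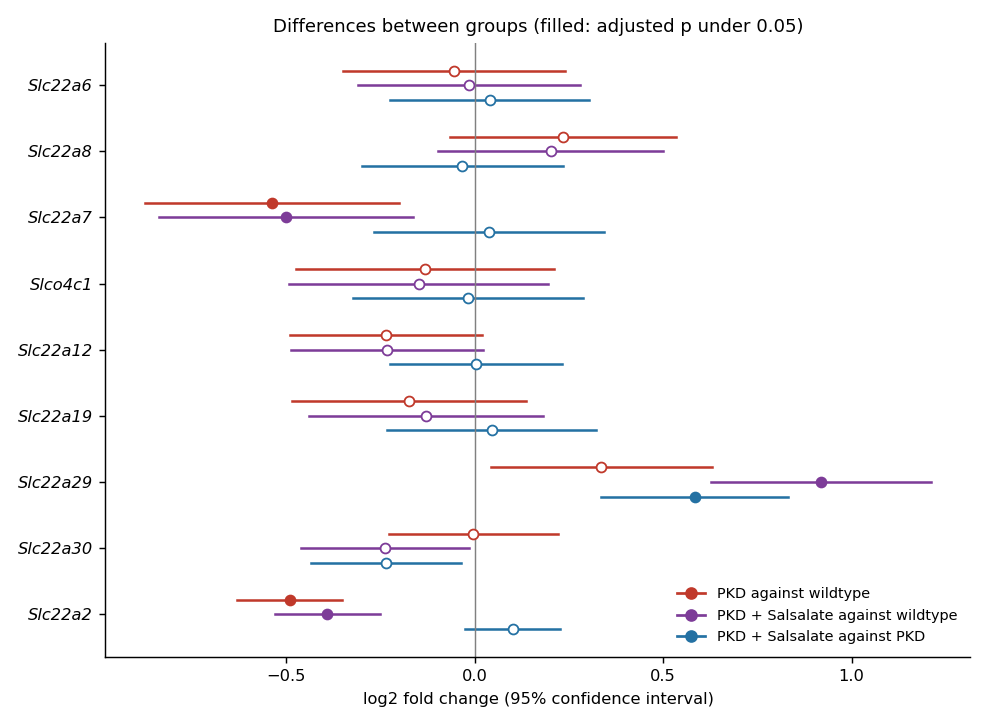
Log2 fold change of each transporter (points) with its 95% confidence interval (lines) in the 3 comparisons; filled points have an adjusted p under 0.05. Slc22a29 is the only transporter filled in PKD + Salsalate against PKD, at 0.58, and Slc22a2 and Slc22a7 lie left of 0 in both comparisons with wildtype.

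Levels per kilobase of exon put the transporters in an order that spans the urate carrier and genes near the detection floor. In wildtype kidneys Slc22a12 came first at 836 ± 294 CPM per kilobase (SD, n = 8), followed by Slc22a6 at 158 ± 61.8 CPM per kilobase. Slc22a2 at 112 ± 11.7 and Slc22a7 at 88.5 ± 29.4 CPM per kilobase came next, and the ranges of Slc22a6, Slc22a2 and Slc22a7 overlapped. Slc22a8 reached 45.0 ± 16.6 and Slc22a30 31.9 ± 6.44 CPM per kilobase, also with overlapping ranges. Slc22a19 stood at 9.18 ± 3.28, Slco4c1 at 2.36 ± 0.954 and Slc22a29 at 1.08 ± 0.360 CPM per kilobase. The ranges of Slco4c1 and Slc22a29 overlapped in wildtype, while Slc22a19 lay above both. The order stayed the same when the longest transcript of each gene replaced its whole exon length.

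Slc22a6 and Slc22a8 encode OAT1 and OAT3, the main carriers that bring organic anions from blood into proximal tubule cells. They are neighbours on the plus strand of chromosome 19, Slc22a8 at chr19:8568476-8589541 and Slc22a6 at chr19:8595356-8605663 (GRCm39), with 5814 bases between their ends. Neither passed the test in any comparison with all kidneys in the fit. Slc22a6 ran from 305 over a median of 571 to 1045 CPM in wildtype kidneys. In PKD it ran from 487 over 636 to 745 CPM, and in PKD + Salsalate from 518 over 630 to 847 CPM. The PKD and PKD + Salsalate values of Slc22a6 lay within the wildtype range and covered each other. The difference with salsalate was 0.04 on the log2 scale (95% confidence interval -0.22 to 0.30, adjusted p = 0.962 by edgeR's quasi-likelihood test).

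Slc22a8 ran from 193 over 270 to 484 CPM in wildtype, from 264 over 351 to 547 CPM in PKD and from 240 over 352 to 407 CPM in PKD + Salsalate. The 3 groups overlapped, though 11 of 12 PKD kidneys lay above the wildtype median. PKD exceeded wildtype by 0.23 (SE 0.15, adjusted p = 0.189) and PKD + Salsalate differed from PKD by -0.03 (95% confidence interval -0.30 to 0.23, adjusted p = 0.970), both on the log2 scale from edgeR.

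Slc22a7, which encodes OAT2, a carrier of organic anions and nucleotide metabolites, lies apart from the cluster on the minus strand at chr17:46743044-46749407 (GRCm39). It ran from 102 over 186 to 315 CPM in wildtype, from 87.1 over 131 to 190.2 CPM in PKD and from 67.8 over 145 to 199.9 CPM in PKD + Salsalate. Only 1 of 12 PKD kidneys lay above the wildtype median, yet the ranges overlapped. PKD was lower than wildtype by a log2 fold change of -0.54 (SE 0.17, 0.689-fold, adjusted p = 0.00780 from edgeR). PKD + Salsalate was lower than wildtype by -0.50 (SE 0.17, adjusted p = 0.0141), and the change with salsalate over PKD was 0.04 (95% confidence interval -0.27 to 0.34, adjusted p = 0.970), on the same log2 scale and test. Against the 5 libraries of wildtype kidneys named with a final R the difference was -0.30 and did not pass (adjusted p = 0.152 from edgeR), and against the other 3 it was -0.88 (adjusted p = 0.000902). Without wildtype replicate 7, the highest of its group, PKD + Salsalate against wildtype no longer passed (-0.37, adjusted p = 0.0576 from edgeR). Of its exon bases, 148 overlap a long noncoding gene, Gm36541, on the other strand, and the counting used strand.

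Slco4c1 encodes OATP4C1, a carrier for digoxin and uremic solutes on the blood side of the proximal tubule, at chr1:96743995-96800111 (GRCm39, minus strand). It was near the bottom of the order, at 6.08 to 19.2 CPM in wildtype with a median of 10.2, 6.33 to 15.4 CPM in PKD with a median of 11.1, and 8.32 to 16.0 CPM in PKD + Salsalate with a median of 10.5. The medians of the 3 groups were closer to each other than the kidneys of any group were. PKD differed from wildtype by -0.13 (SE 0.17, adjusted p = 0.534) and PKD + Salsalate from PKD by -0.02 (95% confidence interval -0.32 to 0.29, adjusted p = 0.987) on the log2 scale from edgeR.

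**Figure D2:**
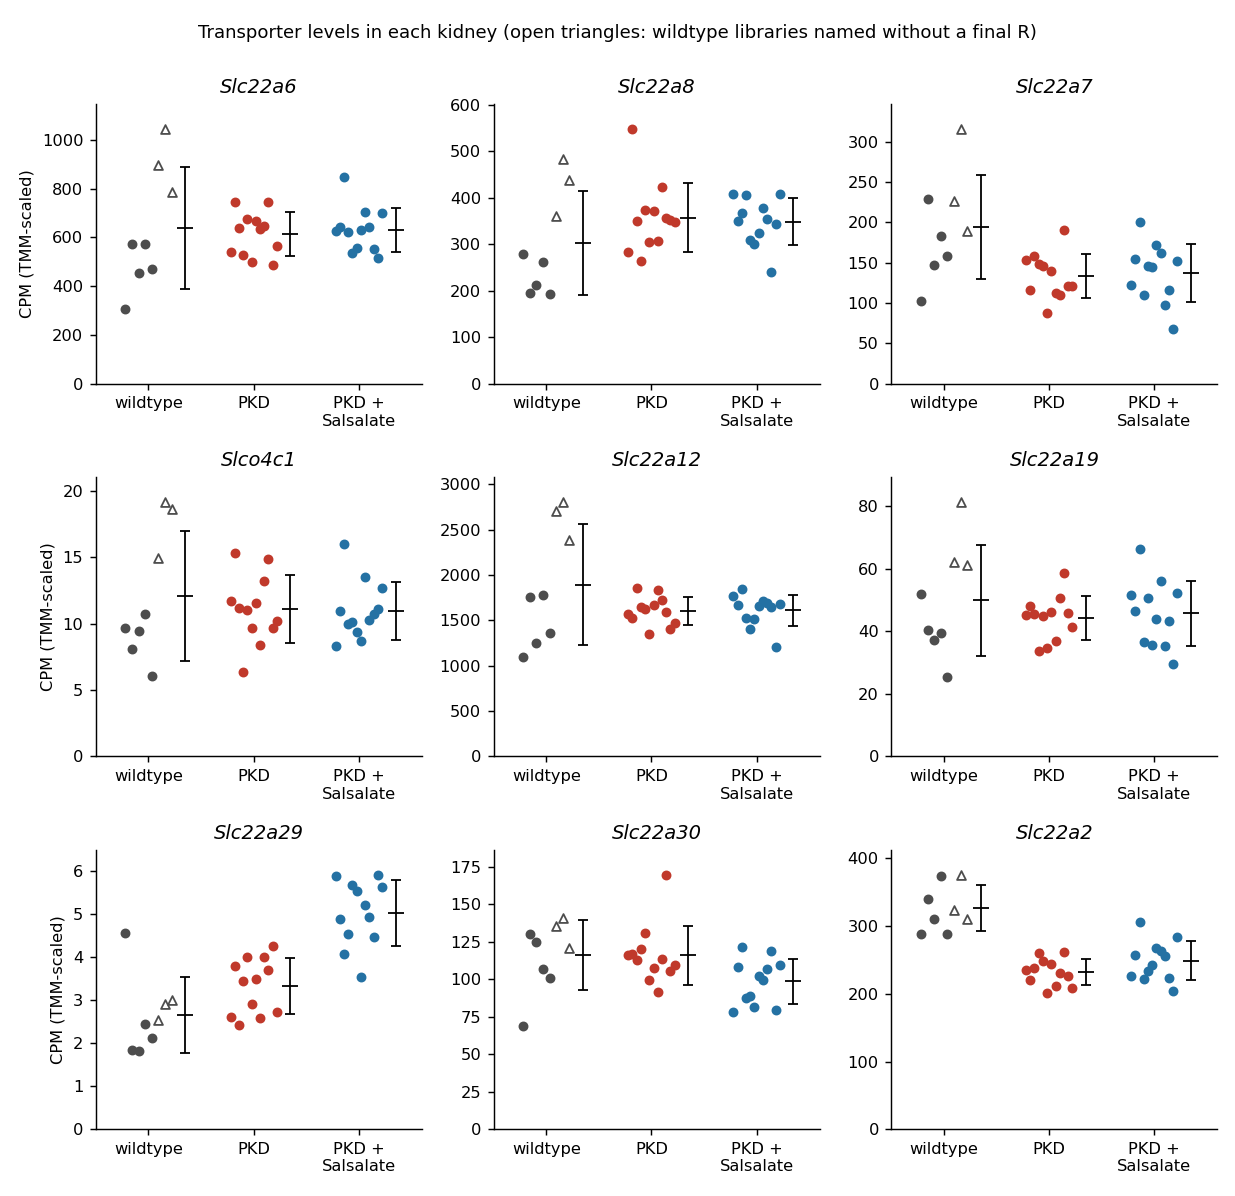
CPM (linear axis from 0) of each of the 9 transporters in each kidney, 8 wildtype, 12 PKD and 12 PKD + Salsalate; black marks give the mean and SD, and open triangles are the 3 wildtype libraries named without a final R. The PKD + Salsalate kidneys sit highest for Slc22a29, the wildtype kidneys sit above all PKD kidneys for Slc22a2, and the open triangles lie above the other wildtype kidneys for Slc22a6, Slc22a8, Slco4c1, Slc22a12 and Slc22a19.

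On the urine side, Slc22a12 encodes URAT1, which takes urate back from the tubule fluid in exchange for organic anions. It was the most abundant of the 9 at chr19:6585875-6593062 (GRCm39, minus strand), from 1093 over 1764 to 2803 CPM in wildtype, from 1348 over 1610 to 1857 CPM in PKD and from 1202 over 1662 to 1850 CPM in PKD + Salsalate. The coefficient of variation was 9.68% in PKD, 10.8% in PKD + Salsalate and 35.2% in wildtype, where it spans the 2 sets of libraries: Slc22a12 stood at 1447 ± 305 CPM (SD, n = 5) with the R and 2631 ± 220 CPM (SD, n = 3) without it. PKD differed from wildtype by -0.24 (SE 0.12, adjusted p = 0.117 from edgeR's quasi-likelihood test) on the log2 scale, and PKD + Salsalate from PKD by 0.0024 (95% confidence interval -0.23 to 0.23, adjusted p = 0.998). Slc22a19, at chr19:7650426-7688675 (GRCm39, minus strand), encodes OAT5, a rodent carrier of sulfated steroids and other anions. Its levels were 25.4 over 46.2 to 81.2 CPM in wildtype, 33.8 over 45.3 to 58.6 CPM in PKD and 29.7 over 45.2 to 66.4 CPM in PKD + Salsalate. All 3 groups overlapped, with a log2 difference of -0.17 (SE 0.15, adjusted p = 0.355) for PKD against wildtype and 0.04 (95% confidence interval -0.23 to 0.32, adjusted p = 0.960) with salsalate, from edgeR.

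The wildtype set decided the direction of several of these comparisons. In 5 of the 9 transporters the 3 libraries without the R lay above all 5 libraries with it. The share of all genes tested that separate in this way was not counted, so the split is not shown to be particular to the transporters. For Slc22a6 the sets averaged 910 and 475 CPM, and for Slc22a8 427 and 228 CPM, the set without the R first. Slc22a12 averaged 2631 against 1447 CPM, Slc22a19 68.1 against 38.9 CPM and Slco4c1 17.6 against 8.81 CPM, up to 1.99-fold apart. The sets overlapped for Slc22a7, Slc22a30, Slc22a29 and Slc22a2, the last being the closest with 336 against 320 CPM. The summed proximal tubule markers moved in the same direction, at 23640 to 26653 CPM without the R and 16886 to 20188 CPM with it. So did the distal markers, at 5347 to 5734 against 3668 to 4735 CPM, and the liver genes, at 1127 to 1795 against 542 to 988 CPM. The sums of the early segment, late segment, injured tubule and leukocyte markers overlapped between the sets. The part of these lists in the difference was not tested.

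PKD was higher than the libraries with the R in Slc22a6 (log2 fold change 0.37, SE 0.12, adjusted p = 0.00988 from edgeR) and lower than those without it (-0.58, SE 0.12, adjusted p = 0.000412). In all, 3 of 9 transporters passed against the set with the R, where 59.6% of all genes passed, and 6 of 9 against the set without it, where 40.8% of all genes passed. Slc22a8 was higher against the first set (0.64, adjusted p = 0.000101 from edgeR) and did not pass against the second (-0.27, adjusted p = 0.146). Slc22a12 did not pass against the first set (0.15, adjusted p = 0.189 from edgeR) and was lower against the second (-0.72, adjusted p = 7.49e-07). The same contrast held for Slco4c1, at 0.35 and -0.66, and for Slc22a19, at 0.19 and -0.63, where only the second value of each passed. With PKD + Salsalate in place of PKD, 4 of 9 passed against the set with the R, where 58.0% of all genes passed, and 8 of 9 against the set without it, where 34.9% passed. Slc22a6 was called against both sets in opposite directions, and none of these 5 genes was called in the same direction against both. Each set differs from the cystic kidneys in tamoxifen as well, and in age if the labels are right.

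**Figure D3:**
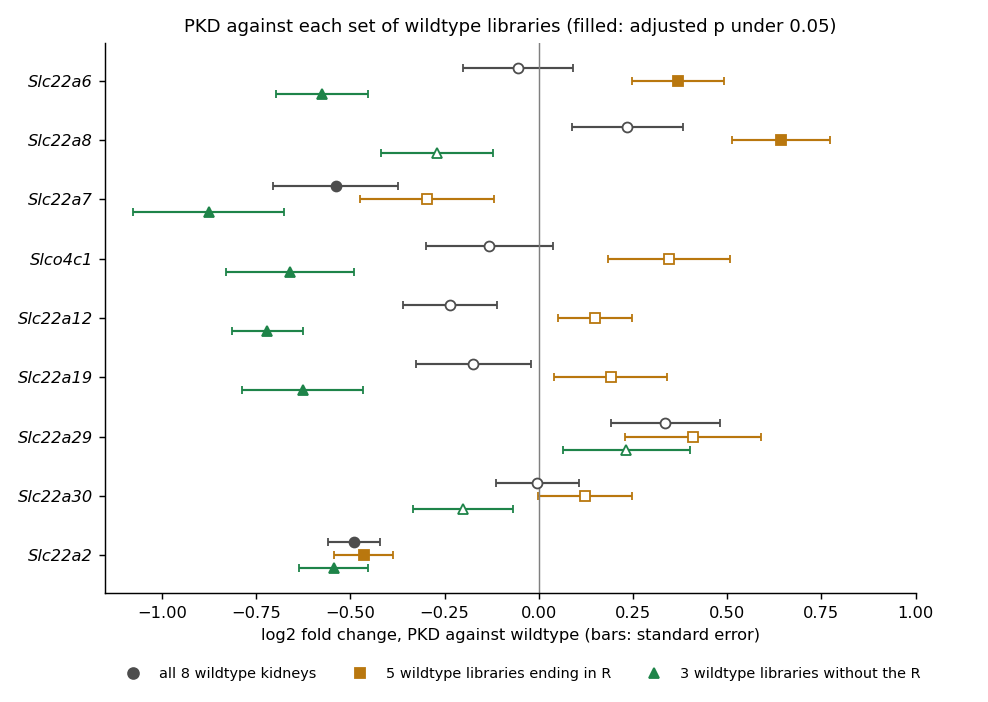
Log2 fold change of PKD against wildtype (points; bars are the standard error) with all 8 wildtype kidneys, with the 5 libraries named with a final R, and with the 3 that do not; filled symbols have an adjusted p under 0.05. Slc22a2 keeps its value in all 3, between -0.54 and -0.46, while Slc22a6 goes from 0.37 to -0.58.

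Slc22a2 encodes OCT2, the carrier that takes organic cations such as metformin and creatinine from blood into proximal tubule cells, and lies on the plus strand at chr17:12803019-12847375 (GRCm39). It was the only one of the 9 whose PKD and wildtype values did not overlap, beside 7.28% of all genes. The wildtype kidneys ran from 288 over 317 to 375 CPM, the PKD kidneys from 200.3 over 233 to 261 CPM and the PKD + Salsalate kidneys from 205 over 249 to 306 CPM. All 12 PKD kidneys were below the lowest wildtype kidney, and all 12 PKD + Salsalate kidneys were below the wildtype median. PKD was 0.711-fold of wildtype, a log2 fold change of -0.49 (SE 0.07, adjusted p = 5.13e-07 from edgeR), and PKD + Salsalate 0.763-fold, at -0.39 (SE 0.07, adjusted p = 2.50e-05). With salsalate the level was 0.10 higher than in PKD on the log2 scale (95% confidence interval -0.03 to 0.23, adjusted p = 0.653 from edgeR), in 8 of 12 kidneys above the PKD median. The fall against wildtype was -0.46 with the R libraries alone and -0.54 with the others. Slc22a2 also varied little among kidneys of a group, with a coefficient of variation of 10.5% in wildtype, 8.50% in PKD and 11.7% in PKD + Salsalate.

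Among the proximal tubule markers, those of the late, S3 segment were lower in PKD than in wildtype in 3 of 4 genes. Those of all segments were lower in 2 of 10, with 1 of 10 higher. Of the 4 markers of the early segment, 2 were higher and 2 lower, and of the 7 distal markers 3 were lower. Beside these, 24.1% of all genes tested passed as higher and 25.0% as lower. The summed S3 markers ran from 1058 to 1752 CPM in wildtype and from 807 to 1358 CPM in PKD. The S3 sum moved in the same direction as Slc22a2 and Slc22a7, and the part of any of these lists in those falls was not tested.

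Slc22a29, at chr19:8137529-8230661 (GRCm39, minus strand), and Slc22a30, at chr19:8312731-8382475 (GRCm39, minus strand), belong to a rodent cluster of organic anion transporter genes whose substrates are less well known. Slc22a29 was the rarest of the 9, with 21 to 445 counts per kidney. In wildtype its level was 1.81 CPM at the lowest, 2.50 at the median and 4.55 at the highest. PKD kidneys ran from 2.43 over 3.47 to 4.26 CPM and PKD + Salsalate kidneys from 3.54 over 5.06 to 5.90 CPM. All 12 PKD + Salsalate kidneys lay above the PKD median, and the ranges of the 2 groups overlapped between 3.54 and 4.26 CPM. The rise with salsalate was 0.58 on the log2 scale (SE 0.12, 95% confidence interval 0.34 to 0.83), or 1.50-fold, with an adjusted p of 0.0159 by edgeR's quasi-likelihood test. By p-value it ranked 27 of 13961 genes.

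PKD + Salsalate was above wildtype by 0.92 (SE 0.14, 1.89-fold, adjusted p = 4.36e-06 from edgeR), with 12 of 12 kidneys above the wildtype median. PKD was above wildtype by 0.34 (SE 0.14), which did not pass (adjusted p = 0.0530 from edgeR). Wildtype replicate 1, at 4.55 CPM, was the highest of its group, and the next was at 3.01 CPM. Without that kidney PKD was higher than wildtype by 0.47 (adjusted p = 0.00499 from edgeR). With 1 kidney left out, this difference passed in 9 of 32 fits, with adjusted p from 0.00499 to 0.126, and it passed in 3 of 11 other alternatives, with adjusted p from 0.0356 to 0.279. The difference with salsalate did not depend on any single kidney: with each of the 32 left out in turn it was 0.55 to 0.62 and passed each time, the highest adjusted p being 0.0368 from edgeR. Between these groups none of the 10 markers of all proximal tubule segments passed the test, nor did any of the early segment, late segment, injured tubule or distal lists. The values still leaned one way in some lists: 4 of 4 early segment markers were positive (median log2 fold change 0.13), 7 of 7 distal markers were positive (median 0.12), and 0 of 5 injured tubule markers were positive (median -0.45), 3 of them with an unadjusted p under 0.05. Of the liver list, 2 of 9 tested genes passed as lower with salsalate, beside 0.329% of all genes, and 1 of 9 was positive (median -1.09). The summed liver genes had similar medians, 1426 CPM in PKD and 1411 CPM in PKD + Salsalate. PKD replicate 10 alone stood at 6158 CPM, against 1826 in the next PKD kidney. Without that kidney the rise of Slc22a29 was 0.59 on the log2 scale (adjusted p = 0.0212 from edgeR). None of the 3 tested leukocyte markers passed, with 0 positive (median -0.12). The part of all these lists in the rise of Slc22a29 was not tested.

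In Slc22a30 the values ran from 68.9 over 123 to 141 CPM in wildtype, from 91.7 over 113 to 169.6 CPM in PKD and from 78.1 over 101 to 122 CPM in PKD + Salsalate. With salsalate 10 of 12 kidneys were below the PKD median, at a log2 difference of -0.24 (SE 0.10) that did not pass (adjusted p = 0.347 from edgeR, unadjusted p = 0.0223). The highest value, 169.6 CPM, was that of PKD replicate 10, the kidney with the high liver gene counts. Without it the difference was -0.17 (adjusted p = 0.574 from edgeR). Against wildtype PKD differed by -0.0034 (adjusted p = 0.982) and PKD + Salsalate by -0.24 (adjusted p = 0.0741), from edgeR on the log2 scale.

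The promoter windows of these 2 genes are shown because they share the most identical aligned bases of the 28 pairs of transporter windows, while 1 of the genes passed the test with salsalate and the other did not. They are RefSeq windows in GRCm38.p6, from 250 bases before to 50 bases after the start, chr19:8218851-8219150 for Slc22a29 and chr19:8405056-8405355 for Slc22a30, both on the minus strand and printed in the direction of the gene. Capitals mark the 30 aligned bases that differ between them. Slc22a7 had no window in the table, so the pairs are those of 8 transporters.
Slc22a29: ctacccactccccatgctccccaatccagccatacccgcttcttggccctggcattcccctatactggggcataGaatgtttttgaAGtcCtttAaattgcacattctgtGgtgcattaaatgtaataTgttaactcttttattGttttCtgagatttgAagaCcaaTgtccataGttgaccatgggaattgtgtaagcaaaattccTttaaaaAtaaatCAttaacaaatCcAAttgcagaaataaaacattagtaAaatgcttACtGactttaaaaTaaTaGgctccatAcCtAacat
Slc22a30: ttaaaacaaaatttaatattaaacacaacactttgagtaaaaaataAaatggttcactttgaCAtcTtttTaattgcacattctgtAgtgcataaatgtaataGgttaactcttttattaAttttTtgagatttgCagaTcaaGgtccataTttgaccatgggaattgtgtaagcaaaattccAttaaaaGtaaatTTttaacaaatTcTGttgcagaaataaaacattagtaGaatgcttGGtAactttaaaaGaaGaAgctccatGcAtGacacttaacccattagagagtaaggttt
In a local alignment 197 of 227 aligned bases were identical, or 86.8%, with 6 bases of gaps. Pairs with a higher percentage aligned over at most 39 bases. The likeness is a description of the windows and was tied to no measurement of binding. Matched to GRCm39, the RefSeq start of each window is also a GENCODE transcript start. For Slc22a29 that start, chr19:8196264, lies inside the annotated gene, which reaches upstream to 8230661, so annotated transcripts also start further upstream. Which start was used in these kidneys was not tested.

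Near-identical relatives limit how well reads of this cluster can be assigned. Of the distinct 50-base stretches in Slc22a29 transcripts, 26.5% also occurred in other genes, most of them in Slc22a27, and of the 100-base stretches 8.52% did. For Slc22a30 the shares were 30.4% and 17.7%, most of them in Slc22a28. Slc22a19 shared 0.985% and Slc22a8 0.843% of 50-base stretches, and Slc22a6, Slc22a7, Slc22a12 and Slco4c1 shared none. Reads that align to several places made up 7.13% to 9.82% of each library's reads and were not counted, so the levels of Slc22a29 and Slc22a30 are uncertain. Slc22a27 had 0 to 17 counts per kidney and was not tested. In order along chromosome 19, the tested neighbours Slc22a26 and Slc22a28 lay at 11.2 and 88.5 CPM in wildtype, 9.51 and 97.2 CPM in PKD, and 9.21 and 84.6 CPM in PKD + Salsalate. Neither passed the test in any comparison, at log2 differences with salsalate of -0.04 (adjusted p = 0.968) for Slc22a26 and -0.20 (adjusted p = 0.592) for Slc22a28, from edgeR.

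Within the 24 cystic kidneys the transporters varied together to different degrees, as a description of kidneys that share depth and tissue makeup. With group means removed, 29 of 36 pairs of transporters had a positive Pearson correlation of log2(CPM + 1), with a median of 0.50. The highest was that of Slc22a7 with Slc22a2 at 0.82. Slc22a29 had a positive value with 3 of its 8 partners, and its lowest was with Slc22a12 at -0.34. Over all 32 kidneys, group differences included, the gene outside the 9 most like Slc22a29 was Cyp4a14, a fatty acid hydroxylase, with r = 0.89 in log2 CPM. Slc22a19 was most like its neighbour in the cluster, Slc22a26 (r = 0.87), and Slc22a8 like Slc3a1, an amino acid transporter subunit of the proximal tubule (r = 0.91). The same measure gave Fads3 for Slc22a6 (r = 0.94), Slc18a1 for Slc22a7 (r = 0.82), Entpd5 for Slco4c1 (r = 0.89), Retreg2 for Slc22a12 (r = 0.93), Pzp for Slc22a30 (r = 0.87) and the gene ENSMUSG00000031294 for Slc22a2 (r = 0.91).

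The other Slc22 and Slco genes of a list of 31 were 19 tested and 12 under the filter. With salsalate none of the 19 passed by edgeR, and 2 had an unadjusted p under 0.05. The lowest adjusted p in that list, singled out after its values were seen, was that of Slco1a6, an organic anion transporting polypeptide. It ran from 83.3 over 118 to 182 CPM in wildtype, from 85.9 over 101 to 132 CPM in PKD and from 68.3 over 77.8 to 98.9 CPM in PKD + Salsalate. With salsalate all 12 kidneys were below the PKD median, at -0.38 on the log2 scale (SE 0.10, adjusted p = 0.0517 from edgeR), which did not pass. It passed under DESeq2's Wald test (adjusted p = 0.0158) and in other alternatives, with adjusted p between 0.00422 and 0.0931 over all of them.

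In PKD against wildtype 2 of the 19 were higher and 2 lower, beside 49.1% of all genes called. Slc22a15, a carrier of zwitterions and cations, rose by 0.59 (SE 0.10, adjusted p = 9.10e-06 from edgeR), and its 12 PKD kidneys, at 7.51 to 10.4 CPM, lay above all wildtype kidneys, at 4.19 to 7.39 CPM. Slc22a5, the carnitine carrier OCTN2, rose by 0.34 (SE 0.13, adjusted p = 0.0252 from edgeR), but against the 3 wildtype libraries without the R it was at -0.14 (adjusted p = 0.263). Slc22a13, an organic anion carrier, fell by 0.76 (SE 0.09, adjusted p = 1.99e-08 from edgeR), from 73.4 to 116 CPM in wildtype to 39.5 to 65.9 CPM in PKD without overlap. Slco1a6 was lower by -0.26 (adjusted p = 0.0445 from edgeR), a call near the threshold that held in 5 of 11 alternatives and in 19 of 32 fits with 1 kidney left out. Against the R libraries it was at 0.0098 (adjusted p = 0.937 from edgeR), and without wildtype replicate 7 at -0.16 (adjusted p = 0.180).

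The partners of organic ion transport numbered 22, of which 20 were tested: carriers of the urine side, dicarboxylate and monocarboxylate carriers that feed anion exchange, scaffold proteins and transcription factors. With salsalate 1 of the 20 passed, Slc17a4, an organic anion carrier of the urine side that also transports urate. The study also names Slc17a4 among genes raised with salsalate. Its levels were 1.80 over 4.23 to 5.36 CPM in wildtype, 3.82 over 5.81 to 8.36 CPM in PKD and 6.23 over 8.97 to 12.6 CPM in PKD + Salsalate. All 12 PKD + Salsalate kidneys lay above the PKD median and above all wildtype kidneys. The rise with salsalate was 0.70 on the log2 scale (SE 0.13, 1.62-fold, adjusted p = 0.00711 from edgeR), and PKD + Salsalate exceeded wildtype by 1.18 (SE 0.15, adjusted p = 2.06e-07). PKD alone exceeded wildtype by 0.48 (SE 0.15, adjusted p = 0.0103 from edgeR), which was 0.15 (adjusted p = 0.507) against the libraries without the R.

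In PKD against wildtype 4 of the 20 partners rose and 5 fell, beside 49.1% of all genes called. The largest rise was in Slc16a1, the monocarboxylate carrier MCT1, from 5.70 over 8.43 to 16.2 CPM in wildtype to 15.1 over 20.8 to 31.5 CPM in PKD, a log2 fold change of 1.03 (SE 0.19, adjusted p = 3.16e-05 from edgeR). Slc5a12, a sodium-coupled lactate carrier of the early proximal tubule, rose by 0.51 (SE 0.13, adjusted p = 0.00132 from edgeR). Against the 3 wildtype libraries without the R neither passed, at 0.48 (adjusted p = 0.0684) for Slc16a1 and 0.26 (adjusted p = 0.159) for Slc5a12. The largest fall was in Slc2a9, the urate carrier GLUT9, at -0.63 (SE 0.13, adjusted p = 0.000220 from edgeR), from 11.6 over 15.6 to 31.4 CPM in wildtype to 9.03 over 12.2 to 14.0 CPM in PKD. Slc25a10, the mitochondrial dicarboxylate carrier, fell by 0.58 (SE 0.08, adjusted p = 1.53e-07 from edgeR), and it passed against each wildtype set. Slc13a3, the blood side sodium-dicarboxylate cotransporter that supplies OAT1 and OAT3, fell by 0.57 (SE 0.12, adjusted p = 0.000208 from edgeR). Against the R libraries Slc2a9 was at -0.18 (adjusted p = 0.104) and Slc13a3 at -0.22 (adjusted p = 0.0512). The transcription factors Hnf4a and Hnf4g did not pass in any comparison, at 0.08 and 0.12 with salsalate and -0.16 and -0.24 in PKD against wildtype on the log2 scale.

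**Figure D4:**
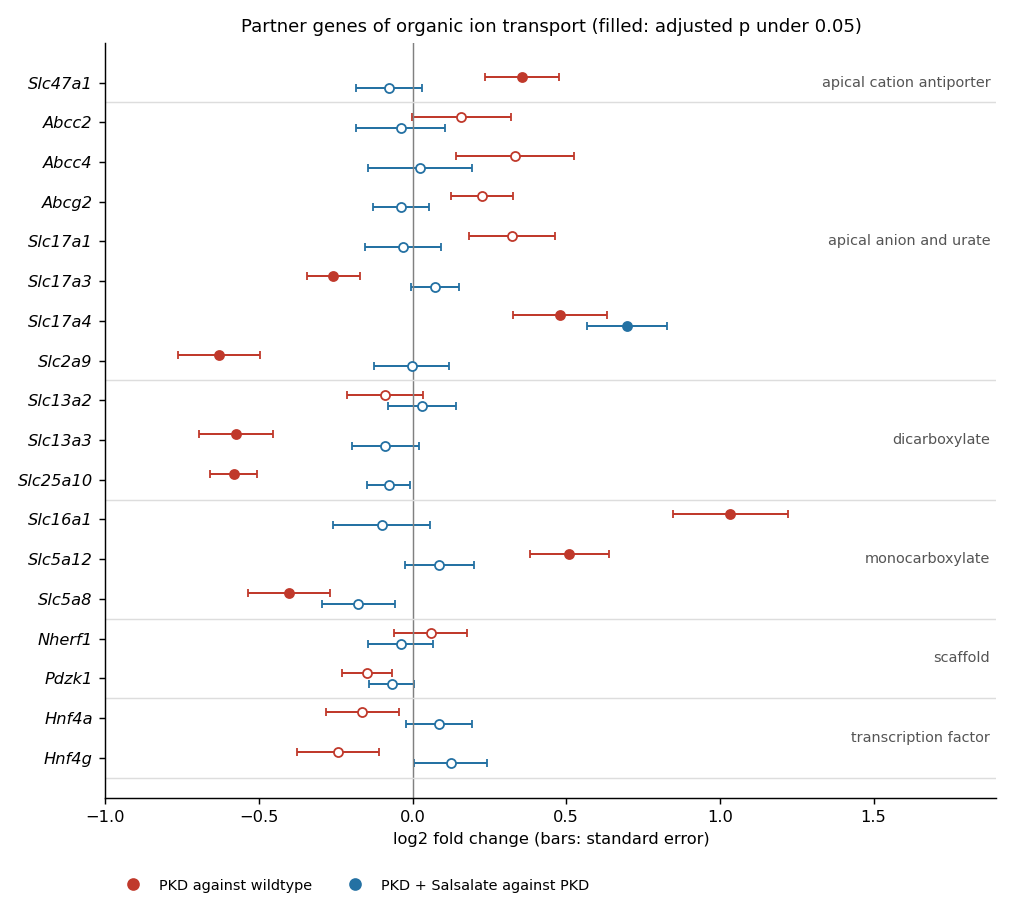
Log2 fold change (points; bars are the standard error) of 18 of the 20 tested partner genes, grouped by role, in PKD against wildtype and PKD + Salsalate against PKD; filled points have an adjusted p under 0.05. Slc17a4 is the single gene filled with salsalate, at 0.70, while 9 genes are filled in PKD against wildtype.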

How the data were processed

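RNA from 32 mouse kidneys was sequenced after poly(A) selection with a strand-marking kit. The authors trimmed reads with cutadapt 2.10, aligned them with STAR 2.7.5a to GRCm39 and made the deposited counts per gene with HTSeq 0.12.4, counting by strand on an Ensembl annotation (versions per the labels and the study's methods). Between 73.6% and 83.1% of reads were counted on genes; rows of HTSeq's unassigned reads were left out. The counts were used as deposited. Gene names and positions came from GENCODE M39 on the same build, which held 52610 of the 53700 genes.

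The filter on low counts asked for log2 CPM above 1 (prior count 2) in 25% or more of all kidneys. The 3 groups were fitted together with TMM factors and edgeR 4.0.16's quasi-likelihood test in R 4.3.3, 2-sided, Benjamini-Hochberg adjusted over all genes kept, threshold 0.05. The fit was checked on simulated counts with known changes. Those had the same spread for all genes and no sets of wildtype libraries, so the check does not bear on single results. Alternatives used DESeq2 1.42.0, limma 3.58.1, other scalings, filters and samples. Intervals are 95% confidence intervals of the log2 fold change between groups, built from its standard error. Exon length is the union of annotated exons, and promoter windows came from RefSeq.

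The text names all 9 transporters, Pkd1, and from the 2 lists each gene called with salsalate and up to 3 largest rises and falls called in PKD against wildtype. Of genes outside the 9, the one with the highest correlation to each was named. The transporters and lists were chosen with earlier results of these data known. Replicate numbers did not mark shared animals: same-numbered PKD and PKD + Salsalate kidneys correlated from -0.40 to 0.41, over 0.1 in 2 of 12 pairs.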

Additional observations from a re-analysis of the deposited data

Results flagged for a closer look

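Wildtype replicate 1 was set apart from the other wildtype kidneys in Slc22a29: at 4.55 CPM, its gap to the next kidney at 3.01 CPM was 0.561 of the whole range of the 8 kidneys, above Dixon's critical value for groups of 8. Of 11 genes looked at in this way, this was the only one past that value, and chance passes it in about 1 of 20 groups. That kidney had 48 counts of Slc22a29. PKD against wildtype was 0.34 (adjusted p = 0.0530 from edgeR's quasi-likelihood test) with it and 0.47 (adjusted p = 0.00499) without it. Groups of 12 were not examined for such gaps.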

How the results depend on the processing

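Slc22a29 passed between PKD + Salsalate and PKD in all 32 fits with 1 kidney left out and all 11 other alternatives, and the count of transporters called there stayed at 1. Genes called there numbered 81, and 199 by DESeq2's Wald test, 190 by edgeR's likelihood-ratio test, 146 by limma-voom, 195 with only the groups compared, 145 with the wildtype libraries ending in R, 257 with those without it, and 39 to 226 with 1 kidney left out. The replicate numbers did not pair the kidneys. With the replicate block, 48 genes were called with salsalate and 1 transporter in PKD against wildtype, Slc22a7 (-0.00027) and Slc22a12 (-0.00080) changed sign with salsalate, and Slc22a6 changed sign against wildtype in PKD (0.016) and PKD + Salsalate (0.060). In PKD against wildtype, transporters called were 6 without the R libraries and 2 to 4 with 1 kidney left out, 4 without wildtype replicate 1 or 7. In PKD + Salsalate against wildtype they were 8 and 2 to 5, with 5 without wildtype replicate 1.

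Other values changed sign too, including those of Slc22a5 (0.34) and Slco1a6 (-0.26), which were called in PKD against wildtype with all kidneys, and of Slc22a8 (0.23) and Slc22a12 (-0.24). With upper-quartile factors these were Slc22a12 with salsalate (-0.0036), Slc22a30 in PKD against wildtype (0.024) and Slc22a6 in PKD + Salsalate against wildtype (0.011). With limma-voom they were Slc22a6 (0.045) and Slc22a30 (0.018) in PKD and Slc22a6 (0.087) in PKD + Salsalate, and with no filter Slc22a30 in PKD (0.0069). With the R libraries alone PKD had Slc22a6 at 0.37, Slco4c1 at 0.35, Slc22a12 at 0.15, Slc22a19 at 0.19, Slc22a30 at 0.12 and Slco1a6 at 0.0098, and PKD + Salsalate had Slc22a6 at 0.41, Slco4c1 at 0.33, Slc22a12 at 0.15 and Slc22a19 at 0.24. With the other 3, Slc22a8 was at -0.27 and Slc22a5 at -0.14 in PKD, and Slc22a8 at -0.30 in PKD + Salsalate. With 1 kidney left out, the salsalate difference ran from -0.0056 to 0.070 in Slc22a6, -0.067 to 0.039 in Slc22a8, -0.025 to 0.11 in Slc22a7, -0.086 to 0.038 in Slco4c1, -0.019 to 0.041 in Slc22a12 and -0.018 to 0.097 in Slc22a19. In PKD against wildtype it ran from -0.16 to 0.082 in Slc22a6 and -0.084 to 0.041 in Slc22a30, and in PKD + Salsalate against wildtype from -0.12 to 0.12 in Slc22a6 and -0.23 to 0.0063 in Slc22a19. The cause was not tested.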
